A study of Homo sapiens with 6 samples.

Results

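The DNA replication machinery was examined through 48 genes chosen by function, of 18372 genes measured on the arrays, in A375 cells after silencing of FAH, the enzyme of the last step of tyrosine breakdown. Earlier results of these data were known when the 48 genes were chosen. A375 is an established human melanoma cell line. Both groups were transfected with siRNA and collected 72 h later: 3 samples received negative control siRNA and 3 received siRNA against FAH (siFAH). Each sample was hybridised to 1 Affymetrix Human Gene 1.0 ST array, which gives a log2 signal per probe set. The groups are transient knockdowns of 1 cell line, so every value below describes the whole RNA pool of a culture. For each gene symbol the brightest probe set carrying that symbol alone was taken, and all 48 genes had one. The comparison asked which of these genes differed in mRNA level between FAH-silenced and control cells.

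Replication of a chromosome is prepared in G1, when the origin recognition complex, CDC6 and CDT1 load the MCM ring onto origins, a step called licensing that geminin blocks later in the cycle. In S phase the kinase of CDC7 and DBF4 and a set of firing factors add CDC45 and the GINS complex to the ring and so make the active helicase. DNA polymerase alpha with primase starts each new strand, the clamp loader RFC places the clamp PCNA, polymerases delta and epsilon extend the strands, and flap removal, ligation and histone deposition complete them. Many of these genes are transcribed around the start of S phase under E2F factors.

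FAH itself had log2 signals of 5.48, 5.59 and 5.68 after control siRNA and 4.92, 4.60 and 4.92 after siFAH. Every siFAH array lay below every control array, and the change, siFAH minus control siRNA on the log2 scale with its standard error, was -0.77 ± 0.10 (adjusted p = 0.00213). All changes of single genes below are in that form, from limma with Benjamini-Hochberg adjustment over the 18372 genes, unless another setting is named. A gene is called lower or higher at an adjusted p under 0.05. Values of single arrays are listed in the order of replicates 1, 2 and 3. Across genes the arrays of 1 group correlated at 0.995 to 0.997 and arrays of different groups at 0.987 to 0.995. Of the melanocyte lineage markers, MITF, SOX10 and S100B had signals of 6.51 to 8.59, whereas the pigment genes PMEL, MLANA and TYR lay at 2.71 to 3.99, within the range of 2.19 to 5.87 of 14 markers of keratinocytes, fibroblasts, immune and endothelial cells. The summed signal of the 6 melanocyte markers was 31.8 to 32.5 in the control arrays and 32.1 to 32.3 in the siFAH arrays, and none of them was called. Of the 14 other markers, KRT10 alone was called, with higher signal after siFAH (0.45, adjusted p = 0.0213). The samples of a group were described as biological replicates from transfections in triplicate, and 3 against 3 arrays limits the precision of every value.

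Replication genes were mostly lower in FAH-silenced cells. Of the 48 genes, 26 were called lower (54.2%), 0 were called higher and 22 were not called. Over all genes tested, 6.38% were called lower and 3.48% higher. Because earlier results of these data were known when the list was made, these shares describe the list and do not test it. Among measured replication genes outside the 48, 19.4% were called lower. The median log2 change of the 48 genes was -0.29, a signal ratio of 0.819, beside 0.01 for all genes tested. In 36 genes all siFAH arrays lay below all control arrays, an arrangement found in 18.6% of all genes tested, and in 2 genes, POLD2 and RPA3, all lay above, an arrangement found in 13.4% of all genes tested. The changes were modest, with the 26 lower genes between -0.55 and -0.26. Among the other 22, 16 had negative values, from -0.28 to -0.07, and 6 had positive values, from 0.05 to 0.18. SAM, the test named in the methods, gave 32 lower and 0 higher at a q under 0.05 (10.3% and 6.22% of all genes tested). The methods' t-test after adjustment gave 0 of either. At an unadjusted p under 0.05 limma gave 36 lower and 1 higher, but the share of all genes at that limit was not counted. At the fold and unadjusted p limits of the methods, 1.2-fold and 0.05, applied here to limma's p, 27 of the 48 genes were lower, beside 7.83% of all genes tested. In a bulk culture, fewer cells in S phase and less RNA per cell cannot be told apart.

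**Figure D1:**
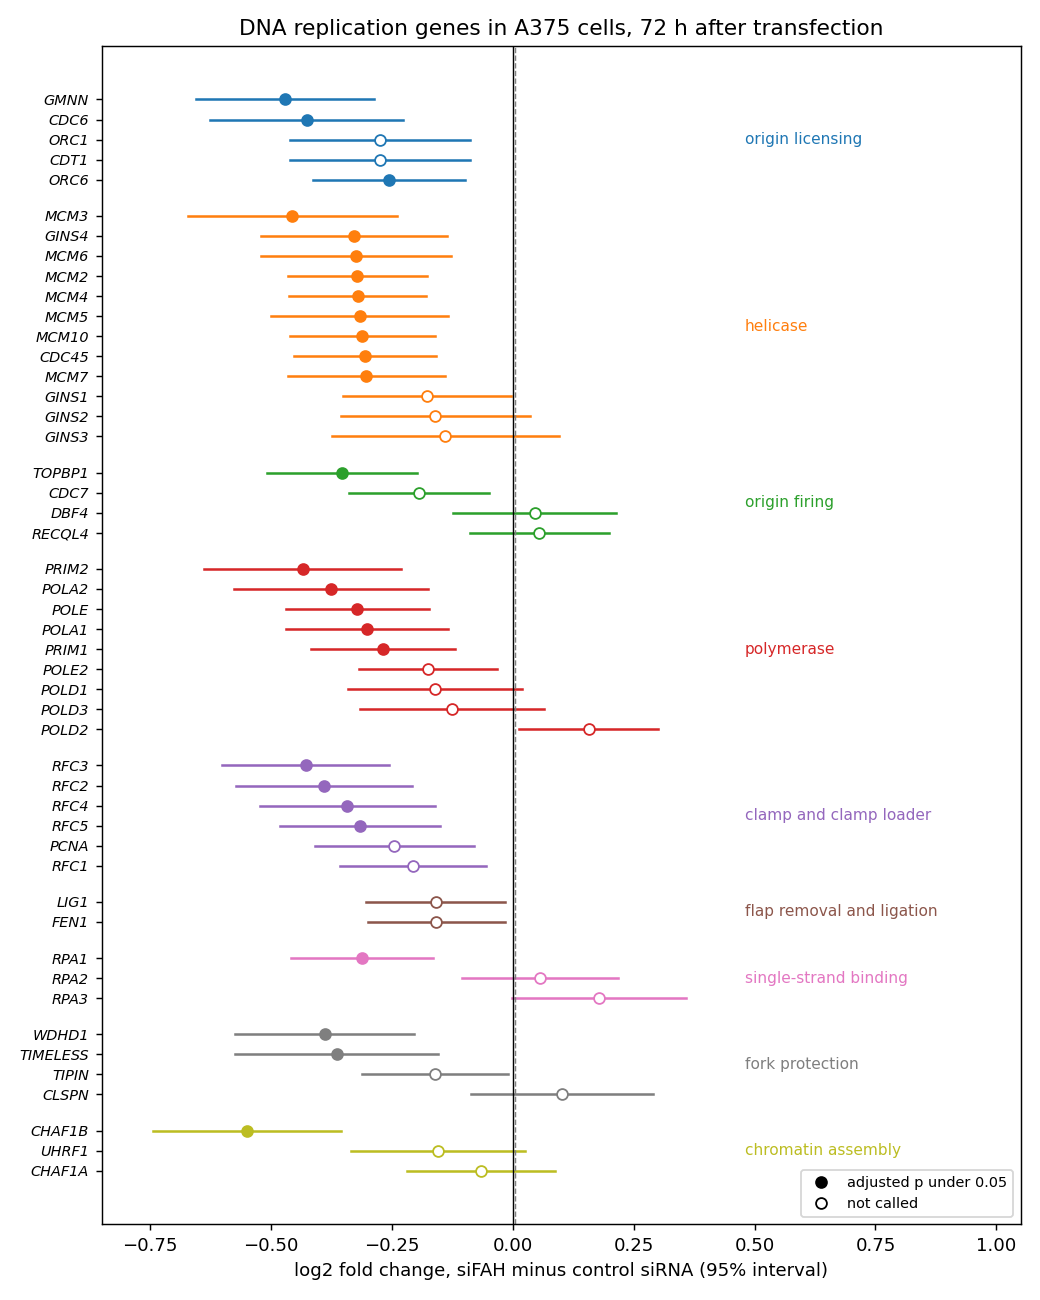
Log2 change of each of the 48 replication genes, siFAH minus control siRNA, on the x axis, with genes grouped by role on the y axis. Points are limma estimates from 3 and 3 arrays, bars are 95% intervals, and filled points mark an adjusted p under 0.05. All 26 filled points lie left of 0, and the 6 points right of 0 are open. The dashed line is the median of all genes tested, 0.01.

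The number of calls changed when single arrays were left out, a step that also leaves fewer arrays for every gene. How much of the change came from the smaller number of arrays was not tested. The count of lower genes was 26 without control array 1, with 24 of them shared, 8 without control array 2, 10 without control array 3, 20 without siFAH array 1, 7 without siFAH array 2 and 6 without siFAH array 3. CHAF1B, GMNN and RFC3 were called in each of these 6 fits. The median change of the 48 genes ran from -0.32 to -0.25 over the same fits. Control array 3 was the highest control array for 33 of the 48 genes, and the median deviation of the 48 genes from the control mean was -0.05, -0.03 and 0.06 in the control arrays against -0.25, -0.26 and -0.29 in the siFAH arrays. Over all genes tested the count of lower genes was 1172 with every array and 1192, 472, 438, 948, 440 and 390 without each of the same arrays in turn. In the plot of counts by setting, other normalizations ran from 18 genes lower under cyclic loess to 30 under median centring, SAM gave 32 and the methods' t-test gave 0.

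**Figure D2:**
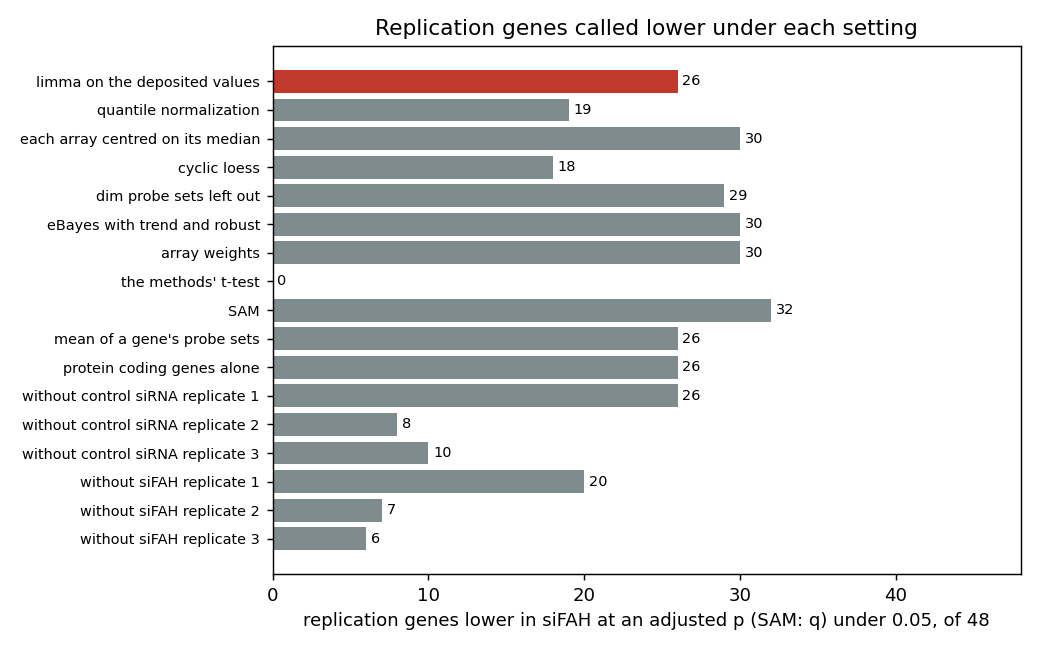
Number of the 48 replication genes called lower (x axis) under different ways of processing or testing the arrays (y axis). The fit with the replicate number as a block, which gave 8 genes lower, is not drawn. The red bar is the fit reported here, with 26 genes, and the grey bars are alternatives, which run from 0 under the methods' t-test to 32 under SAM, with 6 to 26 when 1 array was left out.

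Change also varied with signal level across the array. In deciles of genes by mean signal, the median log2 change was 0.05 in the dimmest and -0.11 in the brightest. Of the 48 genes, 45 lay above the median signal, and the decile next to the brightest, with a median change of -0.09, held 16 of them. The median of the replication genes, -0.29, was below the median of every decile. Centring each array on its median over all probe sets moved the median change of all genes tested to -0.05 and gave 1678 genes lower and 416 higher, against 1172 and 639 on the deposited scale, with 30 replication genes lower and 0 higher. Under quantile normalization the decile medians ran from -0.05 to -0.0089 and under cyclic loess from -0.0205 to -0.0036. These normalizations called 19 and 18 replication genes lower and 1 higher, POLD2, beside 1053 and 893 lower among all genes tested.

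**Figure D3:**
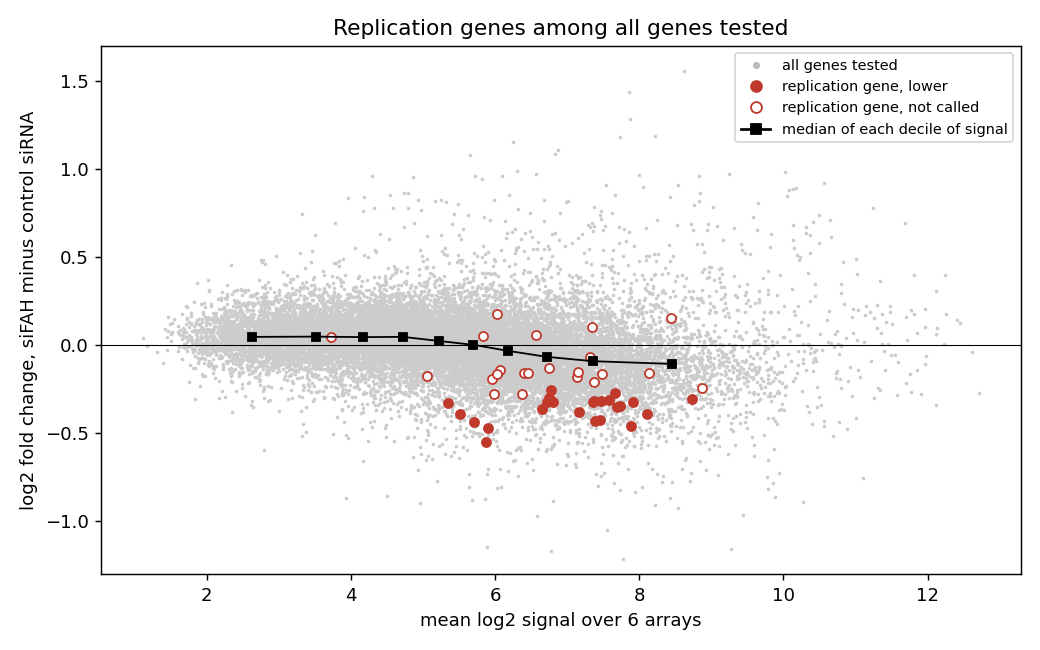
Log2 change, siFAH minus control siRNA (y axis), against mean log2 signal over 6 arrays (x axis) for all 18372 genes in grey and the 48 replication genes in red, filled where called lower. The black squares join the median change of each decile of signal, from 0.05 to -0.11, and the filled points lie below that line.

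The promoters of these genes are shown because E2F words are a known feature of many replication gene promoters. Promoters of RefSeq on GRCh38.p14, short windows around each annotated start, were held for 41 of the 48 genes. Both strands were searched for the words of the E2F consensus, TTTCCCGC, TTTCGCGC, TTTGCCGC and TTTGGCGC. A word stood in the promoters of 22 of the 41 genes (53.7%), in 3.31% of all 35116 promoters and in 5.51% of the 14205 tested genes with a promoter. The stretches below run 5′ to 3′ on the gene's strand, end at or before the start site, and have the matched words in capitals. A match on the other strand reads as the reverse complement, and overlapping matches on both strands form 1 longer run, as in MCM6 and TIPIN. Shown first are genes that were called lower, MCM6 (chr2:135876492-135876625, minus strand), MCM3 (chr6:52284879-52284946, minus strand), GMNN (chr6:24775303-24775370, plus strand), POLA1 (chrX:24693751-24693818, plus strand), POLE (chr12:132687343-132687390, minus strand) and RFC3 (chr13:33818064-33818131, plus strand), and then genes that carry the same kind of word but were not called, PCNA (chr20:5126644-5126711, minus strand), CDC7 (chr1:91501014-91501111, plus strand) and TIPIN (chr15:66356710-66356781, minus strand).
MCM6: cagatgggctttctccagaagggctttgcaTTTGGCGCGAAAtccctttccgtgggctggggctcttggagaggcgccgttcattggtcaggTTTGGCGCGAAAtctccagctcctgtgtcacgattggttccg
MCM3: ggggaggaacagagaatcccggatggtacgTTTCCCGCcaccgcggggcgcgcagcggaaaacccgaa
GMNN: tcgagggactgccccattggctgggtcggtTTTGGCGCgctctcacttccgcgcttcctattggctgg
POLA1: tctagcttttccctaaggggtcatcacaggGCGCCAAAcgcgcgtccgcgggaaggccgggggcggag
POLE: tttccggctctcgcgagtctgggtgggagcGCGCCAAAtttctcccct
RFC3: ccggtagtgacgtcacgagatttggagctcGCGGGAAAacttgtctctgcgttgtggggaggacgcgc
PCNA: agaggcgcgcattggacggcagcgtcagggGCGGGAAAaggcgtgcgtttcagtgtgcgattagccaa
CDC7: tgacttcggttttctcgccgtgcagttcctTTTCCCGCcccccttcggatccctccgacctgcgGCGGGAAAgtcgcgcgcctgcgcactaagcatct
TIPIN: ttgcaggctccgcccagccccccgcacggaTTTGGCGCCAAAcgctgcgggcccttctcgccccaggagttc
Of the 22 genes with a word, 11 were called lower, with a median change of -0.29, and of the 19 without one, 12 were called lower, with a median change of -0.31. Replication genes with and without an E2F word thus had nearly the same median, a difference that was not tested. Among all tested genes with a promoter, 81 of 782 with a word were called lower (10.4%) and 6.73% of those without. The CHR element, TTTGAA, is a word tied to genes of G2 and mitosis. It was found for 1 of the 41 genes, DBF4 (2.44%), beside 15.7% of the tested genes with a promoter and 15.2% of all promoters. A match is a description of the letters and not a binding site.

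All 5 listed licensing genes had negative values, 3 were called lower and the median change was -0.28. Of the origin recognition complex the list held only ORC1 and ORC6. The subunits outside it had -0.09 for ORC2, -0.01 for ORC3, -0.11 for ORC4 and -0.12 for ORC5, and none was called. The groups overlapped in ORC2 and ORC3 and not in ORC4 and ORC5. They were named after their values were seen, and the median above does not cover them. GMNN, which encodes geminin, the inhibitor of CDT1, had log2 signals of 6.17, 6.21 and 6.05 after control siRNA and 5.52, 5.71 and 5.77 after siFAH. All siFAH arrays were below all control arrays, and the change was -0.47 ± 0.08 (adjusted p = 0.00847). CDC6, the ATPase that joins the origin complex to load MCM rings, read 7.60, 7.54 and 7.87 after control siRNA and 7.30, 7.22 and 7.21 after siFAH, again with no overlap, and fell by 0.43 on the log2 scale (adjusted p = 0.0176). ORC6, the smallest subunit of the origin recognition complex, also fell, with -0.26 ± 0.07 (adjusted p = 0.0469). ORC1, the large subunit that binds ATP, had -0.28 ± 0.08 (adjusted p = 0.0649) and CDT1, the loading factor, had -0.27 ± 0.08 (adjusted p = 0.0663). Neither passed the threshold, although all siFAH arrays were below all control arrays in both. Both were called under SAM (q = 0.0303 and 0.0318), median centring, array weights, moderated variances with a trend, without the dim genes and without control array 1. ORC6 was not called in any fit that left out 1 array, nor under quantile normalization or cyclic loess (adjusted p = 0.0772 and 0.0946). The group's count was 4 without control array 1, 2 without control array 2, control array 3 or siFAH array 1, and 1 without siFAH array 2 or siFAH array 3.

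All 6 subunits of the MCM ring fell, with log2 changes between -0.46 and -0.30 and a median of -0.32. MCM3 had log2 signals of 7.96, 8.04 and 8.35 after control siRNA and 7.70, 7.68 and 7.60 after siFAH. Control array 3 was the highest of the control arrays, but the lowest control array was still above all siFAH arrays, and the change was -0.46 ± 0.10 (adjusted p = 0.0185). For MCM4 the signals were 8.08, 8.05 and 8.08 after control siRNA and 7.79, 7.72 and 7.73 after siFAH, with both groups tight and apart, and the change was -0.32 ± 0.06 (adjusted p = 0.0138). The other subunits gave -0.32 ± 0.06 (adjusted p = 0.0145) for MCM2, -0.32 ± 0.08 (adjusted p = 0.0387) for MCM5, -0.32 ± 0.09 (adjusted p = 0.0455) for MCM6 and -0.30 ± 0.07 (adjusted p = 0.0302) for MCM7. In none of the 6 did the groups overlap. The intervals of the 6 subunits overlap widely, so that no order among them can be read. MCM5, MCM6 and MCM7 were not called under quantile normalization or cyclic loess (adjusted p up to 0.0718). MCM10, which helps to switch the loaded ring into a working helicase, fell by 0.31 on the log2 scale (adjusted p = 0.0197).

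CDC45, which joins the ring at firing, had log2 signals of 6.86, 6.91 and 6.98 after control siRNA and 6.64, 6.59 and 6.61 after siFAH. The groups did not overlap, and the change was -0.31 ± 0.07 (adjusted p = 0.0194). Of the GINS complex, the other activator of the ring, 1 of 4 subunits was called. GINS4 read 5.33, 5.67 and 5.52 after control siRNA and 5.17, 5.20 and 5.16 after siFAH, without overlap, and fell, with -0.33 ± 0.09 (adjusted p = 0.0404). GINS1 gave -0.18 ± 0.08 (adjusted p = 0.182), GINS2 gave -0.16 ± 0.09 (adjusted p = 0.279) and GINS3 gave -0.14 ± 0.11 (adjusted p = 0.442). The groups overlapped in GINS2 and GINS3 and not in GINS1. Over the 12 helicase genes 9 were called lower, with a median of -0.31. That count was 9 without control array 1, 1 without control array 2, 3 without control array 3, 7 without siFAH array 1, 0 without siFAH array 2 and 1 without siFAH array 3.

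**Figure D4:**
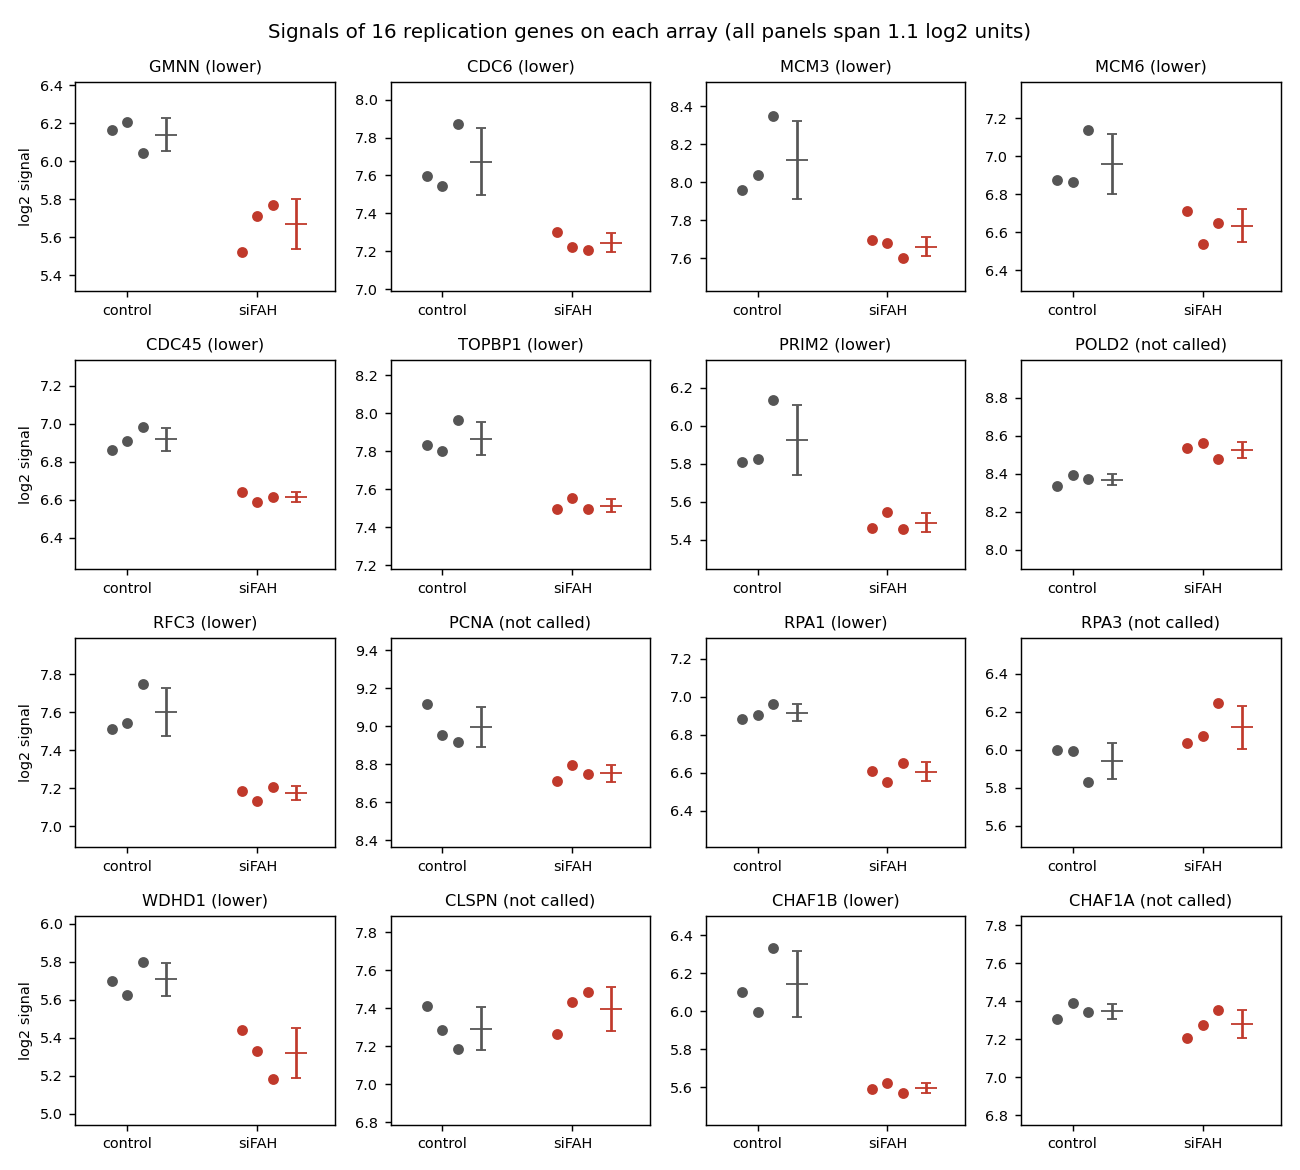
Log2 signal (y axis) of 16 replication genes on each array, with 3 control siRNA arrays in grey and 3 siFAH arrays in red, in the order of replicates. Horizontal marks with bars are the group mean and SD, and every panel spans the same range of log2 units. In the genes marked lower the groups do not overlap, as in CHAF1B, whereas they overlap in CLSPN and CHAF1A and lie the other way round in POLD2 and RPA3.

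Among the origin firing factors 1 of 4 genes was called. TOPBP1, a scaffold that helps to bring CDC45 and GINS to origins and also serves checkpoint signalling, read 7.83, 7.80 and 7.96 after control siRNA and 7.50, 7.55 and 7.49 after siFAH. All siFAH arrays were lower, and the change was -0.35 ± 0.07 (adjusted p = 0.0138). The kinase subunit CDC7 had -0.19 ± 0.07 (adjusted p = 0.09) with no overlap of the groups. Its activator DBF4 had 0.05 ± 0.08 (adjusted p = 0.75) with overlapping groups and a mean signal at percentile 17.7 of all genes, and the sign of its value turned under all 3 other normalizations. RECQL4, a helicase of the RecQ family that acts early in initiation, had 0.05 ± 0.07 (adjusted p = 0.638), also with overlap. The median of the group was -0.07. Without siFAH array 3 TOPBP1 was no longer called (adjusted p = 0.0541).

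All 4 subunits of DNA polymerase alpha with primase fell, with a median log2 change of -0.34. PRIM2, the large primase subunit, had log2 signals of 5.81, 5.83 and 6.13 after control siRNA and 5.46, 5.55 and 5.46 after siFAH. Control array 3 stood above the other control arrays, no siFAH array reached the control range, and the change was -0.43 ± 0.09 (adjusted p = 0.0176). POLA2, the accessory subunit of the polymerase, gave -0.38 ± 0.09 (adjusted p = 0.0292). POLA1, the catalytic subunit, gave -0.30 ± 0.08 (adjusted p = 0.0335) and PRIM1, the catalytic primase subunit, gave -0.27 ± 0.07 (adjusted p = 0.0334). The groups did not overlap in any of the 4. PRIM1 was not called under quantile normalization (adjusted p = 0.0689), nor PRIM1 and POLA1 under cyclic loess (adjusted p = 0.0919 and 0.0545).

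The replicative polymerases that extend the strands were mixed. POLE, the catalytic subunit of polymerase epsilon, read 6.82, 6.86 and 6.95 after control siRNA and 6.55, 6.56 and 6.55 after siFAH. The siFAH arrays were nearly identical and all lower, and the change was -0.32 ± 0.07 (adjusted p = 0.0164). POLE2, its listed accessory subunit, had -0.18 ± 0.06 (adjusted p = 0.114). None of the 3 listed subunits of polymerase delta was called by limma. The catalytic subunit POLD1 had -0.16 ± 0.08 (adjusted p = 0.241) and the accessory subunit POLD3 had -0.13 ± 0.09 (adjusted p = 0.388), both with overlap. POLD2, the other listed accessory subunit, had signals of 8.34, 8.39 and 8.37 after control siRNA and 8.54, 8.56 and 8.48 after siFAH. Every siFAH array was above every control array, with a value of 0.16 ± 0.06 (adjusted p = 0.154) and an unadjusted p of 0.0344. POLD2 passed the threshold under quantile normalization (0.23, adjusted p = 0.0427) and cyclic loess (0.25, adjusted p = 0.0353), and SAM called none of the 3 higher. Of the 9 polymerase genes 5 were called lower, with a median of -0.27. The count was 4 without control array 1, 1 without control array 2, 2 without control array 3 or siFAH array 2, 3 without siFAH array 1 and 0 without siFAH array 3.

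Of the clamp and its loader, 4 of 6 genes were called lower, with a median of -0.33. RFC3, a small subunit of the loader, had log2 signals of 7.51, 7.54 and 7.75 after control siRNA and 7.18, 7.13 and 7.21 after siFAH. All siFAH arrays were lower, and the change, -0.43 ± 0.08 (adjusted p = 0.00996), was called without each array in turn. The other small subunits also fell, with -0.39 ± 0.08 (adjusted p = 0.0174) for RFC2, -0.34 ± 0.08 (adjusted p = 0.0284) for RFC4 and -0.32 ± 0.07 (adjusted p = 0.0271) for RFC5. RFC4 and RFC5 were not called under quantile normalization or cyclic loess (adjusted p up to 0.0736). The large subunit RFC1, which marks the loader that serves replication, had -0.21 ± 0.07 (adjusted p = 0.0844), with no overlap of the groups. PCNA, the sliding clamp that tethers the polymerases, had signals of 9.12, 8.95 and 8.92 after control siRNA and 8.71, 8.80 and 8.75 after siFAH. Its siFAH arrays were all lower, with -0.25 ± 0.07 (adjusted p = 0.0639), short of the threshold. PCNA was called under SAM, median centring, array weights, moderated variances with a trend and without the dim genes. The group's count was 4 without control array 1, 1 without control array 2 or control array 3, 3 without siFAH array 1 and 2 without siFAH array 2 or siFAH array 3.

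Neither gene of flap removal and ligation was called. FEN1, the nuclease that cuts the flaps of Okazaki fragments, had -0.16 ± 0.06 (adjusted p = 0.149) and LIG1, the ligase that seals them, had -0.16 ± 0.07 (adjusted p = 0.151). In both genes all siFAH arrays lay below all control arrays, and the unadjusted p was 0.0323 and 0.0332.

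RPA, the trimer that coats single-stranded DNA, had unequal values across its subunits. RPA1, the large subunit, read 6.88, 6.91 and 6.96 after control siRNA and 6.61, 6.55 and 6.65 after siFAH. The groups did not overlap, and it fell, with -0.31 ± 0.07 (adjusted p = 0.0179). RPA2, the subunit phosphorylated in checkpoint responses, had 0.06 ± 0.07 (adjusted p = 0.668) with overlap. RPA3, the smallest subunit, had signals of 5.999, 5.99 and 5.83 after control siRNA and 6.04, 6.07 and 6.25 after siFAH. All its siFAH arrays were above all control arrays, with 0.18 ± 0.08 (adjusted p = 0.194), which did not pass. The call of RPA1 was lost without control array 2 (adjusted p = 0.0622), control array 3 (adjusted p = 0.0545) or siFAH array 2 (adjusted p = 0.0745).

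Of the fork protection genes 2 of 4 were called lower, with a median of -0.26. WDHD1, also called AND-1, which links polymerase alpha to the helicase, had log2 signals of 5.70, 5.62 and 5.80 after control siRNA and 5.44, 5.33 and 5.18 after siFAH. All siFAH arrays were lower, and the change was -0.39 ± 0.08 (adjusted p = 0.0187). TIMELESS, a fork stabiliser, fell, with -0.36 ± 0.09 (adjusted p = 0.0382), while its partner TIPIN had -0.16 ± 0.07 (adjusted p = 0.163) with no overlap. CLSPN, which encodes claspin, the adaptor for the checkpoint kinase CHK1, had overlapping groups and 0.10 ± 0.08 (adjusted p = 0.485). A second probe set of CLSPN had the opposite sign, at -0.20 (adjusted p = 0.129 over all probe sets), so the array gave no settled value for this gene. WDHD1 and TIMELESS were both lost without control array 3, siFAH array 2 or siFAH array 3, and TIMELESS also without control array 2 (adjusted p = 0.0773).

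Chromatin assembly held the largest change among the 48 genes and also the smallest negative one. CHAF1B, the middle subunit of CAF-1, the chaperone that deposits histones on new DNA, had log2 signals of 6.10, 5.997 and 6.33 after control siRNA and 5.59, 5.62 and 5.57 after siFAH. The siFAH arrays were tightly grouped below all control arrays, and the change was -0.55 ± 0.09 (adjusted p = 0.00544), a signal ratio of 0.683. The highest adjusted p without any 1 array was 0.0261. CHAF1A, the large subunit of the same chaperone, read 7.31, 7.39 and 7.34 after control siRNA and 7.21, 7.28 and 7.36 after siFAH. Its groups overlapped, with -0.07 ± 0.07 (adjusted p = 0.587), and its value was 0.0125 under cyclic loess. UHRF1, which reads hemimethylated DNA and guides DNMT1 to it, had -0.15 ± 0.08 (adjusted p = 0.26) with overlap, and its second, dimmer probe set had 0.22 (adjusted p = 0.139 over all probe sets).

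The groups by role ranged from medians of -0.33 for the clamp and its loader, -0.31 for the helicase, -0.28 for licensing and -0.27 for the polymerases, through -0.26 for fork protection and -0.16 for flap removal and ligation, to -0.15 for chromatin assembly, -0.07 for origin firing and 0.06 for single-strand binding. On single arrays, the group medians of the 3 siFAH arrays lay below those of all 3 control arrays in 7 of these 9 groups of genes, and the exceptions were single-strand binding and chromatin assembly, in which they overlapped. Differences between the groups were not tested, since genes of 1 group are not replicates and the small groups hold 2 to 4 genes. The licensing median leaves out ORC2, ORC3, ORC4 and ORC5, which had values from -0.12 to -0.01.

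**Figure D5:**
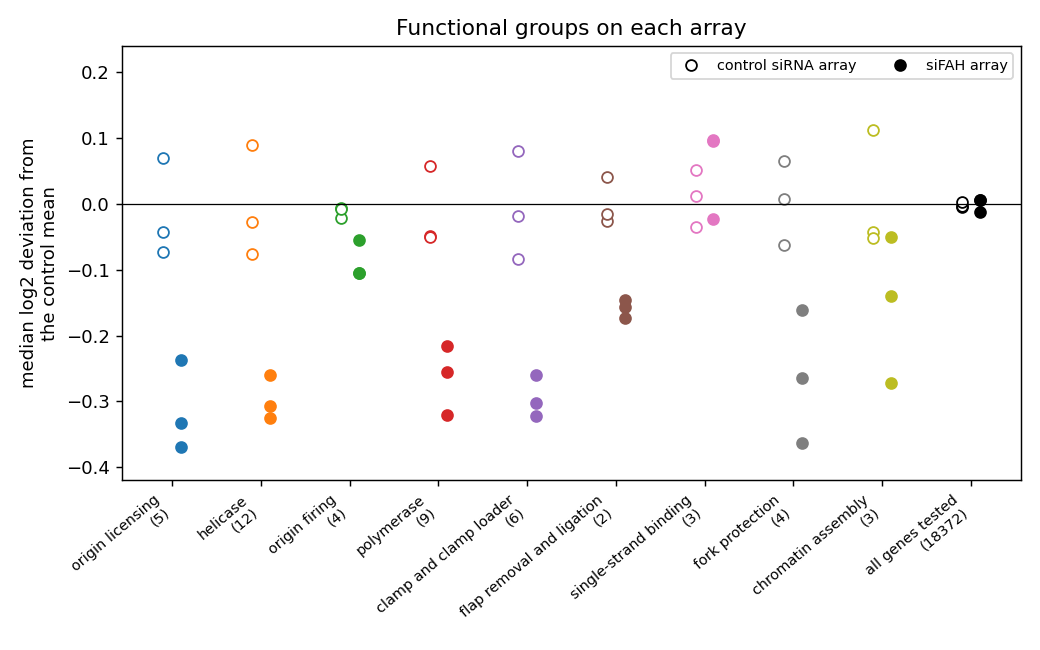
Median log2 deviation from the control mean (y axis) of the genes of each role (x axis, number of genes in brackets) on each array, with open points for 3 control siRNA arrays and filled points for 3 siFAH arrays. The filled points of licensing, helicase, polymerase and clamp genes lie between -0.37 and -0.22, and those of all genes tested lie near 0.

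Subunits of the same complex or partners in 1 step were set against each other within each array. A shift common to all genes of an array cancels in such a ratio, but a shift that varies with signal does not. Over the settings run for the pairs, TOPBP1 to RECQL4 ran from -0.46 to -0.32 and CDC7 to DBF4 from -0.31 to -0.16. POLA1 and POLD2 were also set against each other, although they belong to different polymerases, alpha and delta. The 8 pairs were chosen after their values were seen. The standard errors of the ratio differences came from the spread of the ratios within each group and not from limma. The log2 ratio of CHAF1B to CHAF1A was -1.21, -1.39 and -1.01 after control siRNA and -1.62, -1.66 and -1.79 after siFAH, without overlap, a difference of -0.48 ± 0.12. That of RPA1 to RPA3 differed by -0.49 ± 0.09 and that of RPA1 to RPA2 by -0.37 ± 0.08. POLA1 to POLD2 gave -0.46 ± 0.06, TOPBP1 to RECQL4 gave -0.41 ± 0.08 and RFC3 to RFC1 gave -0.22 ± 0.10. In these 6 pairs the exact two-sided permutation p was 0.1, the smallest that 3 against 3 arrays allow, and 0.133 after adjustment over the 8 pairs. That adjustment does not cover the pairs passed over. With pairs picked from seen values, neither the lack of overlap nor these p values can serve as a test. The ratio of CDC7 to DBF4 differed by -0.24 ± 0.10 (exact permutation p = 0.2) and that of GINS4 to GINS3 by -0.19 ± 0.16 (exact permutation p = 0.3), with overlap in both. This exact test cannot pass the threshold with 3 against 3 arrays, and no other test of the ratios was run.

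Of 36 measured genes of replication outside the 48, 7 were called lower (19.4%) and 0 higher, with a median of -0.12. Over all genes tested 6.38% were called lower and 3.48% higher. At an unadjusted p under 0.05 limma gave 14 lower and 1 higher among the 36, without a count over all genes at that limit. MCM8, an MCM relative that acts in recombination repair, had the lowest value, from 7.97, 8.10 and 8.26 after control siRNA and 7.52, 7.55 and 7.57 after siFAH. All siFAH arrays were lower, with -0.56 ± 0.08 (adjusted p = 0.00331). MTBP, the partner of TICRR in origin firing, gave -0.52 ± 0.09 (adjusted p = 0.00597). RBBP4, the histone-binding subunit that CAF-1 shares with other complexes, gave -0.50 ± 0.10 (adjusted p = 0.0128), so that CHAF1B and RBBP4 of this trimer fell and CHAF1A did not pass. DSCC1, of an alternative clamp loader, gave -0.35 ± 0.08 (adjusted p = 0.0235) and RECQL, a RecQ helicase, gave -0.33 ± 0.09 (adjusted p = 0.0404). DNMT1, the maintenance DNA methyltransferase, gave -0.26 ± 0.07 (adjusted p = 0.0362) and SSRP1, of the histone chaperone FACT, gave -0.33 ± 0.08 (adjusted p = 0.0276). MCM8 and MTBP were called without each array in turn, whereas DNMT1 was not called in any fit that left out 1 array. RECQL and DNMT1 were not called under quantile normalization or cyclic loess, nor SSRP1 under cyclic loess (adjusted p = 0.0504), and SSRP1 did not pass when the mean of its probe sets was taken (-0.05, adjusted p = 0.697). RBBP4 was lost without siFAH array 3 (adjusted p = 0.0505), DSCC1 without control array 3, siFAH array 1 or siFAH array 3 (up to 0.0819), SSRP1 without control array 2, control array 3, siFAH array 2 or siFAH array 3 (up to 0.0982), and RECQL without any array but control array 1 (up to 0.128).

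Of the 13 E2F and pocket protein genes, 2 were called lower (15.4%) and 0 higher, with a median of -0.11. Over all genes tested the shares were 6.38% and 3.48%, and with 13 genes a count of 2 cannot be set apart from them. At an unadjusted p under 0.05 limma gave 3 lower and 0 higher, a limit at which the share of all genes was not counted. TFDP1, the main dimerisation partner of the E2F factors, had log2 signals of 9.53, 9.69 and 9.82 after control siRNA and 9.42, 9.26 and 9.13 after siFAH. All siFAH arrays were lower, with -0.41 ± 0.10 (adjusted p = 0.0271). E2F7, an atypical E2F that represses S phase genes, read 7.00, 7.16 and 7.17 after control siRNA and 6.80, 6.67 and 6.72 after siFAH, without overlap, and fell, with -0.38 ± 0.07 (adjusted p = 0.0128). The activators had -0.11 for E2F1, -0.11 for E2F2 and 0.07 for E2F3, and none was called. E2F4, E2F5, E2F6 and E2F8 had -0.09, -0.13, -0.10 and -0.04, and TFDP2 had 0.07. The pocket proteins, which hold E2F in check, had -0.17 for RB1, -0.23 for RBL1 and -0.13 for RBL2. The 11 genes that were not called had adjusted p values from 0.103 to 0.756. TFDP1 was lost without control array 2, control array 3, siFAH array 2 or siFAH array 3 (adjusted p up to 0.103), and E2F7 without control array 2 or siFAH array 2 (adjusted p up to 0.0584).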

How the data were processed

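The signals were those of 6 Affymetrix Human Gene 1.0 ST arrays. As deposited, the values were log2 signals that the authors obtained by RMA (background correction, global scaling of the arrays and summary of the probes). The RMA version is not given in the sources used here. Sources differ on the RNA and labeling kits.

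Of 28829 probe sets, 19291 had 1 symbol, 1735 had several and 7803 were not named. The brightest probe set per symbol gave 18372 genes, which entered 1 limma model of group (version 3.58.1, R 4.3.3). The residual degrees of freedom were 4 and the prior ones 6.52, and two-sided p values were adjusted by Benjamini-Hochberg. The 48 genes and the other lists were chosen with earlier results of these data known. The rule for named genes took all 48, FAH, the E2F and pocket protein genes, and other replication genes that passed, and the text says where a gene was named outside it. RTEL1 and the marker DCT were not analysed here. Promoters were of RefSeq (GRCh38.p14). MCM4, MCM5, GINS4, RECQL4, POLD3, RPA2 and RPA3 had none here. Alternatives were quantile normalization, median centring, cyclic loess, leaving out the dimmest 20% of genes, trend and robust variances, array weights, the methods' t-test, SAM with all 20 arrangements of the labels, probe set means, the replicate block and leaving out each array. Protein-coding genes alone and the gene pairs were added after seeing the data. The fits were tested on simulated data. Arrays have no read depth, and their number limits the precision. Plots used Python 3.11.15 and matplotlib 3.10.9.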

Additional observations from a re-analysis of the deposited data

How the results depend on the processing

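Leaving out 1 array gave 6 to 26 replication genes lower and 0 higher, with a median change of the 48 from -0.32 to -0.25. By role, the medians ran from -0.34 to -0.25 for licensing, -0.34 to -0.27 for the helicase, -0.09 to -0.07 for firing, -0.30 to -0.24 for polymerases, -0.39 to -0.29 for the clamp and loader, -0.17 to -0.14 for flap removal and ligation, 0.01 to 0.10 for single-strand binding, -0.31 to -0.21 for fork protection and -0.21 to -0.10 for chromatin assembly. FAH ran from -0.82 to -0.66, and under the methods' t-test its -0.77 had an adjusted p of 0.118. That test called 0 replication genes lower, beside 8 lower and 6 higher among all genes. Its unadjusted p was under 0.05 for 35 replication genes that were lower, and the share of all genes at that limit was not counted. Under quantile normalization and cyclic loess 1 gene, POLD2, was called higher. Quantile normalization moved the medians of the clamp and loader to -0.26, the helicase to -0.25, firing to -0.11 and flap removal and ligation to -0.11. Cyclic loess moved them to -0.24, -0.23, -0.10 and -0.094, and that of the 48 genes to -0.23. Median centring moved the 48 to -0.34, firing to -0.13 and flap removal and ligation to -0.21. The median of chromatin assembly was -0.094 under quantile normalization, -0.081 under cyclic loess and -0.066 with probe set means, and that of single-strand binding 0.09, 0.10 and 0.0028 under quantile normalization, cyclic loess and median centring, and 0.023 with array weights. Without dim genes, firing, with DBF4 left out, was at -0.19. Signs turned for DBF4 (-0.0287 under quantile normalization, -0.0084 under median centring and -0.0218 under cyclic loess), CHAF1A (0.0125 under cyclic loess), CLSPN and UHRF1 (-0.0481 and 0.033 as means of their probe sets) and E2F8 (0.0075 without control array 3, and down to -0.0835 without siFAH array 1). The cause was not tested.

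Whether same-numbered cultures were handled together is not given in the sources used here. Deviations of same-numbered arrays from their group means correlated at -0.155, -0.0891 and -0.274, and those of differently numbered arrays at -0.0923 to 0.241. Deviations sum to 0 within each group of 3 arrays, so these correlations cannot settle whether the arrays were paired. With the replicate number as a block, 8 replication genes were called lower and 0 higher (462 and 299 of all genes). Probe set means and protein-coding genes alone each gave 26 lower.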

Other observations

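Small accessory subunits of the polymerases outside the 48 genes had positive values, none of which passed the test. All genes in this paragraph were singled out after their values were seen, outside the rule for named genes. POLE3, a histone-fold subunit of polymerase epsilon, had log2 signals of 6.88, 6.80 and 6.92 after control siRNA and 7.06, 7.11 and 7.12 after siFAH, without overlap, and a log2 change of 0.23 ± 0.07 (adjusted p = 0.0551). Its partner POLE4 had 0.14 ± 0.08 (adjusted p = 0.329). POLD4, the smallest subunit of polymerase delta, had 0.12 ± 0.06 (adjusted p = 0.262), again with every siFAH array above every control array. Subunits of the origin recognition complex beyond ORC1 and ORC6 had -0.09 for ORC2, -0.01 for ORC3, -0.11 for ORC4 and -0.12 for ORC5, and none was called. In ORC4 and ORC5 every siFAH array was below every control array. The topoisomerases had 0.01 for TOP1 and -0.12 for TOP2A (adjusted p = 0.951 and 0.31).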
